A study of Homo sapiens with 10 samples.

Results

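H3K27ac-only islands were stretches of the genome called for acetylation of histone H3 at lysine 27 in immortalized human astrocytes without doxycycline, where neither H3K9ac nor H4K16ac was called in the same cells. An island is a stretch that the authors' caller, SICER, reported as enriched over the control. They were taken from the H3K27ac island list without doxycycline as islands shorter than 20000 bp on chromosomes 1 to 22 that overlapped no island of the other 2 lists by even 1 bp. The rule kept 8111 of 49639 eligible H3K27ac islands, or 16.3% (95% exact interval 16.02 to 16.67), and 15.6% of all 52044 islands in the list. The islands were chosen by the calls of all 3 marks without doxycycline, so values from those lists are given as a description.

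The study profiled 3 histone acetylation marks by CUT&RUN, in which an antibody bound to opened cells recruits a protein A/G-linked nuclease that cuts out the DNA around it for sequencing. The cells, IHA, are a fetal astrocyte line immortalised with SV40, and 200000 cells were used per reaction. Doxycycline was given at 1 µg/ml; the libraries taken 2 or 7 days later carry the genotype label IDH1-R132H, and those without doxycycline carry the label WT IDH1. Each mark and time had 1 library, and a secondary-antibody library from cells without doxycycline served as the control for every list. No library of cells given doxycycline without the IDH1-R132H transgene was used here, so doxycycline, the induced enzyme and time in culture cannot be told apart. With 1 library per condition there is no replicate check and no test: intervals cover counting error only, and PCR copies of 1 fragment may count more than once.

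H3K27ac is written by the acetyltransferase CBP and its paralogue and marks active enhancers and promoters. H3K9ac, a product of GCN5 and PCAF, lies mostly at active promoters, and H4K16ac, written by MOF, loosens chromatin fibres. IDH1-R132H makes the metabolite D-2-hydroxyglutarate, which inhibits dioxygenases that demethylate histones and DNA. An H3K27ac site without the other 2 marks is often read as a distal element, but no gene annotation of the files' build (hg19) was used here, and islands are named by position and Giemsa band.

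The libraries differed in size. Relative to the control, the H3K27ac libraries had sizes of 3.98 without doxycycline, 3.15 at 2 days and 1.49 at 7 days. The H3K9ac libraries had sizes of 3.05, 4.17 and 4.88 and the H4K16ac libraries 2.53, 3.08 and 7.88 at the same times. A site therefore had fewer reads with which to pass as an H3K27ac island at 7 days, at 0.375 times the size without doxycycline. It had more with which to pass as an H4K16ac island, at 3.11 times that size. The smallest island listed in any library held 11 reads.

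The H3K27ac-only islands were short and modestly enriched. Their median length was 2600 bp, against 4000 bp for islands that also had H3K9ac, 3200 bp for those that also had H4K16ac and 5400 bp for those with both. They held a median of 66 H3K27ac reads, against 124, 70 and 195 in the same 3 classes. The longest was 13800 bp, and all 1321 islands of 20000 bp or more overlapped at least 1 of the other marks. Together the H3K27ac-only islands covered 24.3 Mb and held 672788 reads, 5.22% of the reads in the list.

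Short islands were more often H3K27ac only: 40.9% of those of 1000 to 2000 bp were. In that length band their median scaled H3K27ac level was 7.96 reads per kb, against 8.54 with H3K9ac, 7.54 with H4K16ac and 8.25 with both. Among longer islands the gap to the classes with H3K9ac was wider: from 5000 to 10000 bp the medians were 6.14 reads per kb for the H3K27ac-only islands and 9.25, 5.33 and 9.72 for the same 3 classes, and from 3000 to 5000 bp 5.76 against 7.67, 5.11 and 7.48. The median authors' deposited fold over control was 3.32 over all H3K27ac-only islands. The control held 2.23 reads per kb over the H3K27ac-only islands, and 14.8% of them had no control read. Where no control read fell, the authors' fold rests on an entered control count of 0.25 and is not a measure of strength.

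The H3K27ac-only islands lay at varied distances from islands of the other marks, and how random positions compare was not tested. Their median distance to the nearest H3K9ac or H4K16ac island was 4600 bp; 28.9% lay within 2000 bp of one and 10.1% more than 50000 bp away. The next H3K27ac island was a median of 7400 bp away, against 5200, 4600 and 4000 bp in the classes with H3K9ac, with H4K16ac and with both. Just inside the rule, 275 islands touched or lay within 200 bp of another mark and had a median of 65 reads. Just outside it, 184 islands overlapped other marks by at most 200 bp and had a median of 60 reads. In light Giemsa bands, which are gene-rich, lay 52.6% of the H3K27ac-only islands. The shares were 53.3, 56.6 and 57.8% in the classes with H3K9ac, with H4K16ac and with both.

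On chromosomes 13, 16 and 19 a higher share of the H3K27ac islands was H3K27ac only than on the other 19 autosomes. The share of H3K27ac islands without the other marks was 34.4% on chromosome 13 (355 of 1033), 29.9% on chromosome 16 (426 of 1427) and 26.1% on chromosome 19. It lay between 11.8% and 18.7% on the others. These 3 chromosomes held 14.5% of H3K27ac-only islands but 6.74% of the other H3K27ac islands. The control moved with this: it had 1.73, 1.62 and 1.86 reads per kb of H3K27ac island on chromosomes 13, 16 and 19, against 2.01 to 2.28 elsewhere, and its part in the result was not tested.

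**Figure D1:**
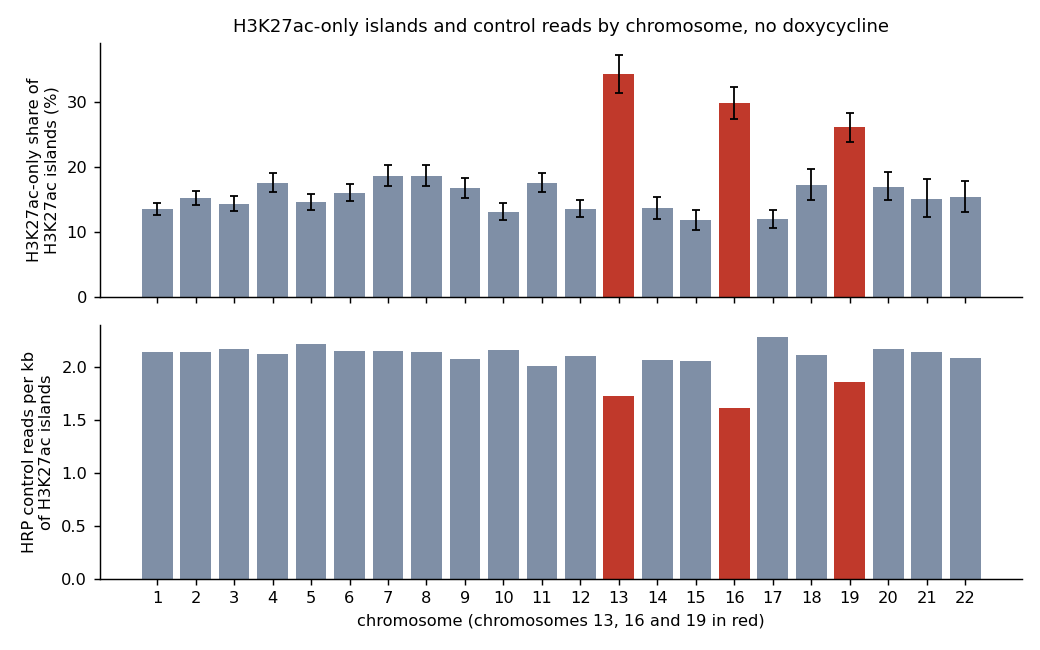
Share of H3K27ac islands without doxycycline that had neither H3K9ac nor H4K16ac, in percent with 95% exact intervals (upper panel), and control reads per kb of H3K27ac island (lower panel), by chromosome. Chromosomes 13, 16 and 19, in red, stand highest in the upper panel at 34.4, 29.9 and 26.1% and lowest in the lower one.

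The share ran over a wider range between Giemsa bands than between chromosomes, but bands hold fewer islands and so have wider intervals. Among 424 bands with at least 50 H3K27ac islands the median share was 14.0%, and 5 bands passed 50%, all on chromosomes 13 and 16. At 13q14.11, 55 of 88 H3K27ac islands, 62.5%, had neither other mark, and at 16q24.1 the share was 59.6%. The bands 16q24.3, 13q12.3 and 13q14.2 followed at 56.6, 54.1 and 52.9%. Control reads in these 5 bands were 1.05, 1.24, 0.956, 1.28 and 1.04 per kb in that order. H4K16ac, the mark with the smallest library without doxycycline, was called over 11.4% of the 13q14.11 islands and 8.51% of the 16q24.1 islands, against 59.0% of all H3K27ac islands.

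Most of these sites were overlapped by an H3K27ac island at each later time when 1 bp of overlap was enough. An H3K27ac island overlapped 6198 of the 8111 at 2 days, 76.4% (75.5 to 77.3), against 87.7% of all H3K27ac islands. At 7 days it overlapped 4975, or 61.3% (60.3 to 62.4), against 79.1% of all. When the later islands had to cover at least 50% of the original, the shares were 62.5% at 2 days and 40.0% at 7 days, a minority, against 75.1 and 52.7% of all. By any overlap, 4214 had it at both times, 52.0% against 73.8% of all, and 1984 at 2 days alone, 24.5% against 13.9%. Another 761 had it at 7 days alone, 9.38% against 5.26%, and 1152 at neither. The last group was 14.2% of the H3K27ac-only islands, against 7.08% of all. Where an H3K27ac island was called it covered a median of 75% of the original coordinates at 2 days and 60% at 7 days.

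**Figure D2:**
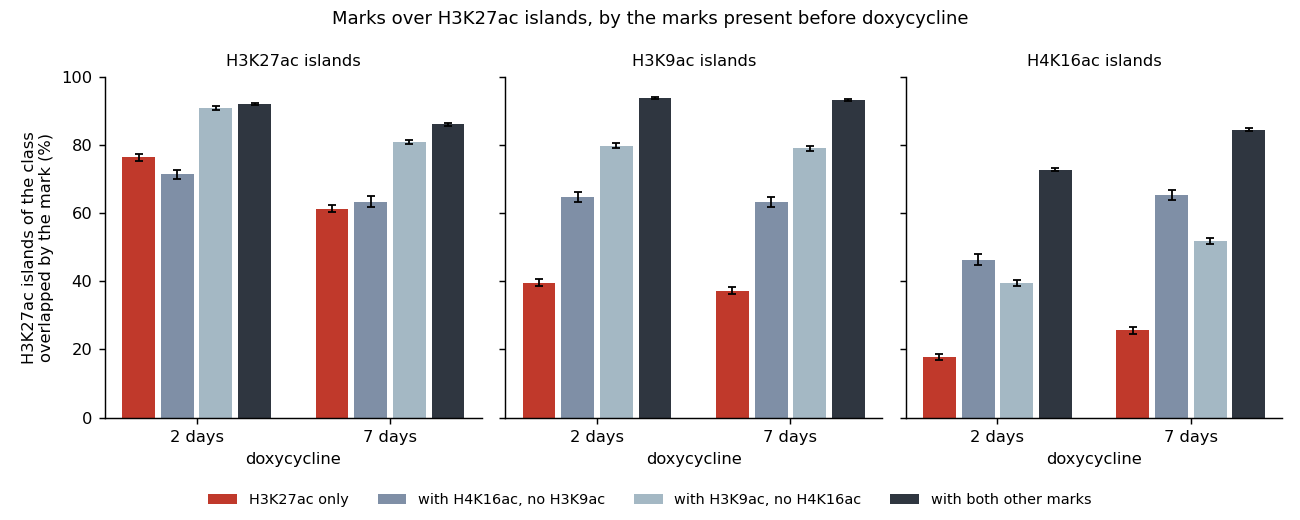
Share of H3K27ac islands overlapped by an island of each mark at 2 and 7 days of doxycycline, in percent with 95% exact intervals, for the 8111 H3K27ac-only islands (red) and the 3 classes that also had H4K16ac, H3K9ac or both without doxycycline. H3K27ac-only islands have the lowest H3K9ac and H4K16ac shares at both times; for H3K27ac they stand above the class with H4K16ac alone at 2 days, at 76.4 against 71.4%, and below it at 7 days, at 61.3 against 63.5%.

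The gap to the classes with H3K9ac was smaller among islands of equal read number. An expected read number was set for each island as its reads without doxycycline times the ratio of library sizes. Its median over H3K27ac-only islands was 52.2 at 2 days and 24.7 at 7 days. Among islands with 30 to 50 expected reads at 2 days, 61.8% of the H3K27ac-only islands kept H3K27ac, against 68.6% of islands with H3K9ac, 53.0% of those with H4K16ac and 62.4% of those with both. With 20 to 30 expected reads at 7 days the shares were 56.8% for the H3K27ac-only islands and 60.4, 53.7 and 57.8% for the same 3 classes. In these 2 bands the intervals of the H3K27ac-only islands and of the class with both marks overlapped. In higher bands at 7 days they stood lower: with 30 to 50 expected reads at 76.2% (74.2 to 78.1), against 80.3% (78.7 to 81.7) with H3K9ac and 78.7% (77.4 to 79.9) with both. With 50 to 100 they stood at 93.3% (91.4 to 94.8), against 97.1% (96.5 to 97.6) and 96.0% (95.5 to 96.5), with no overlap of the intervals. With 50 to 100 expected reads at 2 days the share was 87.4% (86.2 to 88.5), against 91.9% (91.0 to 92.7) with H3K9ac, 79.7% with H4K16ac and 86.2% with both.

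**Figure D3:**
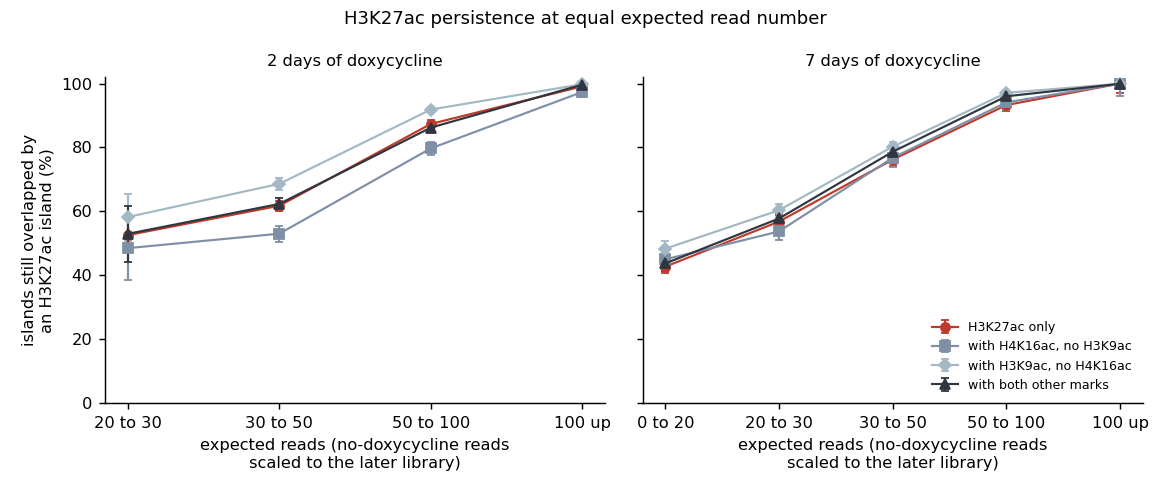
Share of H3K27ac islands still overlapped by an H3K27ac island at 2 and 7 days, in percent with 95% exact intervals, by expected reads (the count without doxycycline scaled to the later library). All 4 classes have higher shares at higher expected reads; H3K27ac-only islands reach 99.1% at 2 days and 100% at 7 days from 100 expected reads up.

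The H3K27ac-only islands with the most expected reads were nearly all kept, as were such H3K27ac islands of every class. Of the 1143 with at least 100 expected reads at 2 days, 10 had no H3K27ac island then, so 99.1% kept it, against 99.6% of all 24442 such H3K27ac islands. Of the 122 with at least 100 at 7 days, none was without one, which leaves a lower interval bound of 97.0%, against 99.93% of all 12414. The island with the most reads lay at 19q13.32 (chr19:45238001-45249000). It held 809 H3K27ac reads without doxycycline, 574 at 2 days and 285 at 7 days within its coordinates, with log2 ratios after size scaling of -0.16 (-0.31 to -0.00023) and -0.09 (-0.29 to 0.11). No H3K9ac or H4K16ac island overlapped it at any of the 3 times, so H3K27ac alone was called over it throughout. The control held 50 reads over these coordinates, and an H3K9ac island lay 1200 bp away without doxycycline.

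Other islands with many H3K27ac reads did not stay alone. Those at 17p11.2 and 3q21.3 had authors' H3K27ac folds of 2.92 and 3.13 without doxycycline, below the H3K27ac-only median of 3.32. The control held 66 and 51 reads over them. At 17p11.2 (chr17:19962801-19971000) the H3K27ac reads were 768, 545 and 238 at no doxycycline, 2 days and 7 days. An H3K9ac island overlapped it at both later times, with authors' folds over control of 1.18 and 1.17. At 3q21.3 (chr3:128941401-128952400) the H3K27ac reads were 635, 435 and 191, and H3K9ac islands had authors' folds of 1.43 and 1.14. Both gained H3K9ac calls were thus wide islands of low fold.

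Among islands without H3K27ac at both later times, those with the most reads were long. At 7q32.2 (chr7:129232401-129240400) 140 reads over 8000 bp without doxycycline were followed by no H3K27ac island, while H3K9ac islands covered 5200 bp of it at 7 days. At 2p21 (chr2:45487601-45493000) 128 reads were followed by no island of any mark at either time. At 10q26.12 (chr10:122158801-122163800) there were 120 reads, with an authors' fold of 1.26, and the sole later island was H3K9ac at 7 days, over 200 bp. An absent island means that no stretch passed the caller, not that no read fell there.

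Read levels over the islands that persisted depended on how the called length was treated. Reads were counted by the share of each later island that fell inside the original coordinates and divided by library size. By this count the 2-day level over that without doxycycline had a median log2 ratio of -0.35 (-0.36 to -0.33) in 6198 islands, and the 7-day level one of -0.28 (-0.30 to -0.26) in 4975, beside -0.29 and -0.30 over all H3K27ac islands. This count drops reads outside the original coordinates and spreads a longer island's reads evenly over its length, and the later islands covered only part of the original sequence. Per kb of called island the same medians were 0.16 and 0.53. In the 1464 H3K27ac-only islands whose 2-day island overlapped by at least 80% both ways, the median ratio of whole counts was 0.0067 (-0.012 to 0.022). In the 633 of that kind at 7 days it was 0.20 (0.15 to 0.25), in a list that holds only islands that passed. By reads inside the original coordinates these same islands had medians of -0.10 (-0.12 to -0.080) at 2 days and 0.086 (0.048 to 0.13) at 7 days, so the choice of islands and the way of counting both moved the value.

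**Figure D4:**
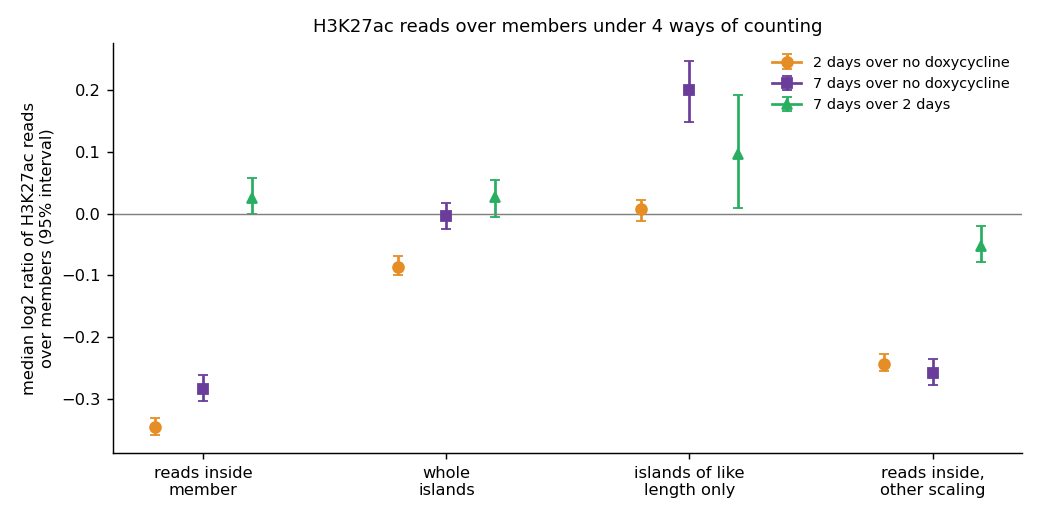
Median log2 ratio of H3K27ac reads over H3K27ac-only islands, with 95% order-statistic intervals, for 3 pairs of times under 4 ways of counting. The ratios over no doxycycline are negative when reads inside the original coordinates are counted and at or above 0 where only islands of like length are compared.

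Ratios of 2-fold or more were mostly on the lower side, as over all H3K27ac islands. At 2 days 616 islands were at least 2-fold lower than without doxycycline, 9.94% against 7.14% of all, and 22 were at least 2-fold higher, 0.355% against 0.244%. At 7 days 696 were lower, 14.0% against 13.6%, and 48 higher, 0.965% against 0.459%. Between the libraries that the rule did not use, 7 days over 2 days, the median log2 ratio was 0.025 (-0.00042 to 0.058) in 4214 islands, beside -0.019 over all H3K27ac islands. Here 319 were at least 2-fold higher, 7.57% against 5.05% of all, and 352 lower, 8.35% against 7.81%.

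The most extreme ratios belonged to islands that met a later one at an edge or were overlapped by a longer one. The highest at 2 days, at 1p13.2 (chr1:112951201-112956200), had 73 reads without doxycycline and a log2 ratio of 1.5 (1.09 to 1.92). Its 2-day island was 21400 bp long with 1164 reads, of which 163 were assigned to it, and it touched an H3K9ac island without doxycycline. The islands at 21q22.3 (chr21:47652201-47654600) and 19q13.42 (chr19:54373801-54374800) followed with ratios of 1.4 and 1.36, again under longer islands. The 3 lowest, at 2p23.2 (chr2:29011601-29014800), 21q22.3 (chr21:46279801-46283000) and 19p13.3 (chr19:2633201-2636200), rested on a 200 bp edge of an island that lay mostly outside. Their log2 ratios were -4.16, -4.13 and -4.04 by reads inside, and -0.16, -0.13 and -0.13 per kb.

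The 7-day extremes had the same form. The highest ratios were 1.99 at 19q13.43 (chr19:59089001-59092800), 1.98 at 11q13.1 (chr11:65387001-65389600) and 1.39 at 19q13.2 (chr19:41737801-41740800), overlapped by islands of 12800, 17000 and 15400 bp. The lowest were -4.35 at 16q12.1 (chr16:48615001-48619400), -4.32 at 11q12.3 (chr11:62653401-62659200) and -4.24 at 5q14.1 (chr5:77670001-77674200). Each of the lowest rested on 200 bp, and per kb the ratios were 0.11, 0.54 and 0.15.

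Pairs of like length, chosen after these values were seen, gave far smaller ranges. Among 1234 such pairs with at least 50 reads in either library at 2 days, 1 was at least 2-fold higher and 1 at least 2-fold lower. The higher one, at 3p22.2 (chr3:36566401-36568000), had 65 reads at 2 days, against 39 without doxycycline, a log2 ratio of 1.08 (0.48 to 1.69). The lower one, at 16q23.3 (chr16:81743801-81746000), had 29 reads at 2 days, against 81 without doxycycline, a ratio of -1.14 (-1.81 to -0.52). Among 523 such pairs at 7 days, 18 were at least 2-fold higher and 4 lower. Like-length pairs over all H3K27ac islands were not counted, so neither time's numbers can be called particular to H3K27ac-only islands. The highest, at 22q13.33 (chr22:50707801-50711800), had 93 reads at 7 days, against 83 without doxycycline, with the 7-day library at 0.375 times the size, a ratio of 1.58 (1.14 to 2.03). The lowest, at 21q21.1 (chr21:17058601-17061800), had 22 reads at 7 days, against 126 without doxycycline, a ratio of -1.10 (-1.83 to -0.44).

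H3K9ac appeared over a minority of the H3K27ac-only islands. The rule chose islands without H3K9ac and H4K16ac, so calls of these marks over them could only rise. Over all H3K27ac islands the calls turned over both ways. H3K9ac was gained at 5686 and lost at 4034 at 2 days, and gained at 5441 and lost at 4278 at 7 days. At 2 days 3213 of 8111, 39.6% (38.5 to 40.7), overlapped an H3K9ac island, against 79.3% of all H3K27ac islands and 47.7% of those that had no H3K9ac before. At 7 days the number was 3027, 37.3% (36.3 to 38.4), against 78.3 and 45.6% of the same 2 sets. The H3K27ac islands that had H4K16ac but not H3K9ac without doxycycline gained H3K9ac more often, at 64.9 and 63.3%. When the H3K9ac islands had to cover at least 50% of the original, the H3K27ac-only shares were 22.7% at 2 days and 25.9% at 7 days, against 55.3 and 61.2% of all, so the order of the 2 times turned. By any overlap, 1776 of the H3K27ac-only islands had H3K9ac at both times, 21.9% against 69.8% of all, 1437 at 2 days alone, 17.7% against 9.48%, and 1251 at 7 days alone, 15.4% against 8.49%. Of the 2-day calls 55.3% recurred at 7 days, against 88.0% over all H3K27ac islands, and of the 7-day calls 58.7% had been present at 2 days, against 89.2%.

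H4K16ac appeared less widely. Over all H3K27ac islands it was gained at 6269 and lost at 8964 at 2 days, and its share fell from 59.0 to 53.6%. At 7 days it was gained at 8419 and lost at 5254. H4K16ac overlapped 1448 H3K27ac-only islands at 2 days, 17.9% (17.0 to 18.7), against 53.6% of all H3K27ac islands and 30.8% of those without H4K16ac before. At 7 days it overlapped 2080, 25.6% (24.7 to 26.6), against 65.4 and 41.4%. The class with H3K9ac alone gained it over 39.4 and 51.8%. At both times it overlapped 845 of the H3K27ac-only islands, 10.4% against 46.2% of all. The larger 7-day share was measured in a library of 7.88 times the control, the largest of the 9. When islands were kept only if they would pass at the size of the library without doxycycline, it was 23.3%.

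The gained H3K9ac calls were mostly islands of their own. At 2 days 94.2% and at 7 days 91.6% of the H3K27ac-only islands with H3K9ac met no H3K9ac island that also reached one present without doxycycline. For H4K16ac these shares were 85.2 and 66.4%. The same split was not made over all H3K27ac islands that gained a mark. The gained H3K9ac islands had a median of 40 reads at 2 days, against 84 over H3K27ac islands that had H3K9ac before. Their median authors' fold over control was 3.33 at 2 days, against 3.36 over islands with H3K9ac before, and 2.71 at 7 days, against 3.003. For H4K16ac it was 2.59 at 2 days, against 2.92 over islands with H4K16ac before, and 2.03 at 7 days, against 2.18. Over the H3K27ac-only islands with H3K9ac at both times, the median log2 ratio of its reads at 7 days over 2 days was 0.062 (0.023 to 0.10) by reads inside the original coordinates and -0.17 (-0.20 to -0.14) per kb of called island, so its sign depends on how the called length is treated. For H4K16ac, over 845 islands, these were -0.10 (-0.14 to -0.058) and -0.39 (-0.41 to -0.37). The gained H4K16ac islands at 7 days were wide, with a median length of 5200 bp.

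Both marks were gained more often close to where they already stood. H3K9ac was called at 2 days over 53.1% (48.6 to 57.7) of the H3K27ac-only islands within 1000 bp of an H3K9ac island without doxycycline, and over 26.7% (24.3 to 29.2) of those 50000 bp or more away. For H4K16ac the shares by distance to its own islands were 36.9% (32.8 to 41.2) and 4.38% (3.33 to 5.64) at 2 days. At 7 days they were 57.6% (53.2 to 61.9) and 3.38% (2.47 to 4.51), so far sites did not share in the higher 7-day total. Median lengths in these distance bands ran between 2400 and 3000 bp.

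**Figure D5:**
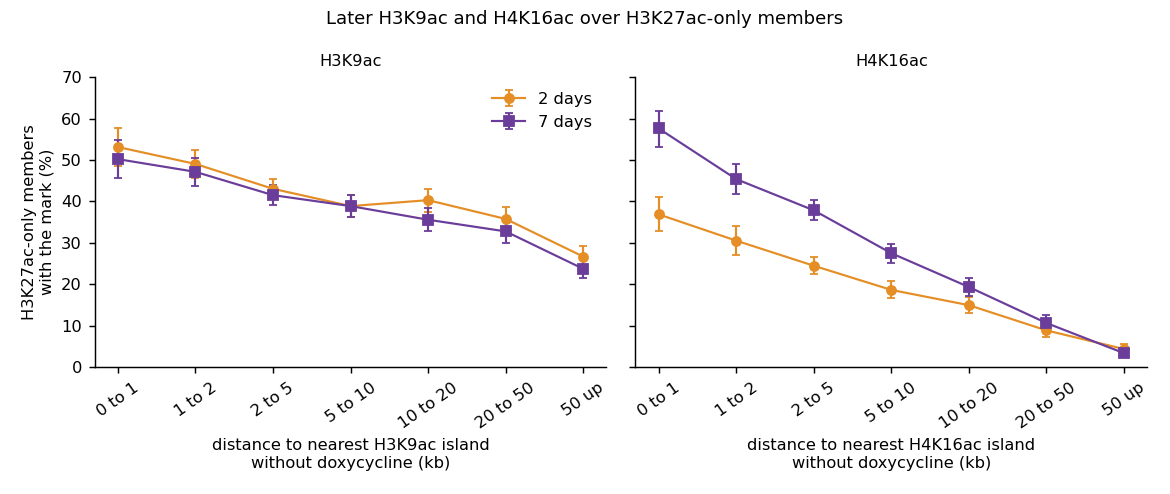
Share of H3K27ac-only islands overlapped by an H3K9ac (left) or H4K16ac (right) island at 2 and 7 days, in percent with 95% exact intervals, by distance in kb to the nearest island of the same mark without doxycycline. H4K16ac at 7 days runs between 57.6% nearest and 3.38% farthest, a steeper slope than H3K9ac.

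The 2 marks tended to come together. At 2 days 26.1% of the H3K27ac-only islands with H3K9ac also had H4K16ac, against 12.4% of those without H3K9ac. At 7 days the shares were 38.6 and 17.9%. The same ordering held in the 3 other classes of H3K27ac islands. On chromosomes 13, 16 and 19 H4K16ac was rarer: it overlapped 10.96% of the 1177 H3K27ac-only islands there at 7 days, against 28.1% of the 6934 elsewhere, and 7.90% against 19.5% at 2 days. The same held over all H3K27ac islands, where H4K16ac stood at 39.4% on those chromosomes and 67.7% elsewhere at 7 days, and at 28.2 and 55.8% at 2 days. H3K9ac at 7 days stood at 30.5% of the H3K27ac-only islands on those chromosomes and 38.5% elsewhere, and over all H3K27ac islands at 67.4 and 79.3%.

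Over the H3K27ac-only islands, H3K27ac was kept more often where H3K9ac had appeared and less often where H4K16ac had, the latter by a smaller gap at 2 days. Over all H3K27ac islands the order for H3K9ac was the same, and that for H4K16ac was the other way at both times. At 2 days 44.1 and 3.64% of all had H4K16ac and H3K27ac, with and without H3K9ac, and 4.44 and 1.39% had H4K16ac but no H3K27ac. Where H4K16ac was absent, 28.0 and 11.9% had H3K27ac, with and without H3K9ac, and 2.73 and 3.77% did not. At 2 days 81.3% of the islands with H3K9ac had H3K27ac, against 73.2% of those without H3K9ac, and at 7 days 68.0% against 57.4%. The islands with H3K9ac also had more H3K27ac reads to begin with, a median of 73 against 62 at 2 days. Among islands of 2000 to 3000 bp the 7-day shares were 65.3% with and 55.1% without H3K9ac. At 2 days the share that kept H3K27ac was 74.0% with H4K16ac, against 76.9% without it. Among islands of 2000 to 3000 bp these 2-day shares were 73.6 and 75.5%, and from 3000 to 5000 bp 73.3 and 80.6%. Islands of 3000 to 5000 bp had a median of 78 reads without doxycycline with H4K16ac and 85 without it. At 7 days it was 56.2% with H4K16ac, against 63.1% without it, and among islands of 2000 to 3000 bp 49.2% against 61.5%. Reads without doxycycline in that length band were a median of 56 with H4K16ac and 61 without. Where H3K27ac was kept, its median log2 ratio at 2 days was -0.36 with and -0.33 without H3K9ac, and their intervals overlapped. At 7 days it was -0.34 (-0.39 to -0.30) with and -0.26 (-0.29 to -0.24) without H4K16ac.

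The H3K9ac gains of highest fold lay where the control had no reads. At 11q24.3 (chr11:130715201-130721200) H3K27ac reads were 362, 295 and 81.9 at the 3 times, and H3K9ac islands of 74 reads at 2 days and 113 reads at 7 days had authors' folds of 70.9 and 92.5. At 16q24.3 (chr16:88727401-88730800) H3K27ac reads were 152, 96.3 and 60, and H3K9ac islands of 70 and 92 reads had folds of 67.1 and 75.3. The 9q21.13 island (chr9:78504601-78506200) had 76, 30.3 and 24.0 H3K27ac reads. Its H3K9ac islands of 67 and 99 reads had folds of 64.2 and 81.1, 323400 bp from the nearest H3K9ac island without doxycycline. None of these 6 H3K9ac islands held a control read, so their folds rest on the entered control count.

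The H4K16ac gains of highest fold were of the same kind. At 19q13.2 (chr19:40730001-40739200) an H4K16ac island of 59 reads at 2 days had an authors' fold of 76.5, and at 7 days the fold was 55.8. At 7q22.3 (chr7:104837801-104840000) H4K16ac reads of 51 and 67 had folds of 66.1 and 34.0, and the log2 ratio of H3K27ac at 2 days was -0.47 (-0.91 to -0.04). At 1q25.2 (chr1:179942201-179948000) H4K16ac islands of 60 and 113 reads had folds of 19.5 and 57.4, while H3K27ac had 89 reads without doxycycline, no island at 2 days and 16 reads at 7 days. At 2 days the last of these carried H4K16ac and H3K9ac calls and no H3K27ac call. Its 2-day H4K16ac island was the only 1 of the 6 with a control read.

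Many of the H3K27ac-only islands met no other mark in any later list. In the 2-day and 7-day lists together, 2945 of 8111, 36.3% (35.3 to 37.4), had no H3K9ac and no H4K16ac island, against 8.42% of all H3K27ac islands. Of these, 1387 had H3K27ac at both times and so kept their pattern throughout, 17.1% of the H3K27ac-only islands, against 4.21% of all with that later pattern. A further 489 had no island of any mark in the 6 later lists, 6.03% against 1.29%. Among islands with no later H3K9ac or H4K16ac island the shares lay closer together. That set is mostly the H3K27ac-only islands themselves, 2945 of 4180, so the closeness is partly built in. In that set, 47.1% of the H3K27ac-only islands had H3K27ac at both times, against 50.02% of all its H3K27ac islands. No mark in any later list was found over 16.6% against 15.3% of the same 2 sets. At the other end, 198 of the H3K27ac-only islands had all 3 marks at both times, 2.44% against 32.9%. At 7 days alone, 2460 were again H3K27ac only, 30.3% against 9.10% of all, 1713 had no mark, 21.1% against 5.20%, and 712 had all 3, 8.78% against 48.4%.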

How the data were processed

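CUT&RUN libraries of 3 marks at 3 times and 1 control library were used. Bowtie2 2.3.5.1 and SICER, with cutadapt, Picard, FastQC and deepTools, were used on build hg19, per the submitters' processing notes; no source used here gives their settings. For each list the authors set 1 antibody library against the control. The deposited counts of antibody and control reads per island are whole numbers and not normalised. The deposited p-value and FDR are the authors' own; recomputing the p-value as a Poisson tail gave a largest relative difference of 3.64e-12. The deposited log2 fold is the log2 ratio of both counts less 1 constant per list, with a control count of 0 entered as 0.25, and the deposited score was not used in any result. That constant gave each library's size relative to the control. Lists held 52044 to 110234 islands and 4209773 to 18664203 reads, the largest FDR per list lay between 0.0491 and 0.05, and all antibody libraries share 1 control.

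Presence is an overlap of at least 1 bp. Reads of a later island were apportioned by overlapped length. Shares have exact Clopper-Pearson intervals, medians have order-statistic intervals and ratios of 2 counts have exact binomial intervals, all at 95% and for counting error only. Positions are 1-based on hg19, and bands come from the hg19 table of circlize 0.4.16. Python 3.11.15, pandas 2.3.3 and SciPy 1.17.1 were used; overlaps were checked against bedtools and on simulated lists. Named islands are the top 3 by reads, by highest and lowest H3K27ac ratio at each time among islands with at least 50 reads in either library, by reads among those without H3K27ac at both later times, and by authors' fold of H3K9ac and H4K16ac present at both times with at least 50 reads, ranked by the lower fold; like-length pairs were added after the values were seen. The rule and lists were chosen with earlier results of these data known. Sequences and genes were not used here, as the references given are of another build.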

Additional observations from a re-analysis of the deposited data

Results flagged for a closer look

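Chromosome X was outside the rule and holds the same kind of island at a higher share. Without doxycycline, 513 of its 1082 H3K27ac islands shorter than 20000 bp, 47.4% (44.4 to 50.4), had neither H3K9ac nor H4K16ac, above the 34.4% of chromosome 13, the highest autosome. It was singled out because it is a signal in data that the comparisons leave out. Of the 513, H3K27ac was called over 84.2% at 2 days and 66.7% at 7 days. H3K9ac was called over 25.9 and 23.2%, and H4K16ac over 4.48 and 3.70%. The control had 1.84 reads per kb of H3K27ac island on chromosome X, against 2.01 to 2.28 on the 19 autosomes other than 13, 16 and 19; its part in the result was not tested.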

How the results depend on the processing

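No paired analysis was possible because each mark and time had 1 library. Of 88 alternative values, 24 stayed within the main value's interval (for the number of islands, within 1.5 times) and 61 moved outside it. The other 3 were median ratios of opposite sign to a main value whose interval bounds had the same sign. The main interval at 7 over 2 days had bounds of both signs, so changes of sign there were counted as moved. Shares are given in the order H3K27ac, H3K9ac and H4K16ac, each at 2 and 7 days, then the share with neither H3K9ac nor H4K16ac at either later time. Counting only islands that covered at least 50% of the original gave 62.5, 40.0, 22.7, 25.9, 11.8, 20.8 and 50.5%. Later islands at an FDR of 0.001 or less gave 72.2, 57.0, 33.9, 32.4, 14.7, 22.8 and 42.2%. Matching depth rechecked called islands at the smaller library size and called none anew, so the part of depth was not tested by it. It left H3K27ac at 76.8 and 62.4% and H4K16ac at 2 days at 17.4%. It moved H3K9ac to 38.2 and 35.4%, H4K16ac at 7 days to 23.3% and the last share to 38.4%. Original islands at an FDR of 0.001 or less gave 78.8 and 62.8% for H3K27ac and 38.5% for H3K9ac at 7 days. Islands at least 2000 bp from other marks gave 77.4% for H3K27ac at 2 days, 35.8 and 33.7% for H3K9ac, 13.2 and 18.8% for H4K16ac and 42.0% for the last share. Islands shorter than 5000 bp gave 74.8, 59.2, 38.4 and 35.9% for H3K27ac and H3K9ac, 24.7% for H4K16ac at 7 days and 37.7% for the last share, with median log2 ratios of -0.25 at 7 days over no doxycycline and 0.068 at 7 over 2 days. Islands with at least 100 reads numbered 1953 and gave 97.8, 87.3, 50.2, 48.8, 19.9, 22.7 and 28.6%, with median log2 ratios of -0.32 at 2 days and -0.45 at 7 days over no doxycycline and -0.13 at 7 over 2 days. Leaving out chromosomes 13, 16 and 19, chosen after seeing the data, gave 60.2% for H3K27ac at 7 days, 40.7 and 38.5% for H3K9ac, 19.5 and 28.1% for H4K16ac, 34.2% for the last share and a ratio of -0.0036 at 7 over 2 days.

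Scaling by reads in islands gave median ratios of -0.24 and -0.26 over no doxycycline and -0.052 at 7 over 2 days. Whole counts of overlapping islands gave -0.086 and -0.0040 over no doxycycline. Restricting to islands overlapping by at least 80% both ways gave 0.0067 (-0.012 to 0.022) at 2 days, an interval with bounds of both signs. At 7 days over no doxycycline it gave 0.20 (0.15 to 0.25), and at 7 over 2 days 0.096. Counting reads inside the original coordinates in these same islands, chosen after seeing the data, gave -0.10 at 2 days, 0.086 at 7 days and 0.070 at 7 over 2 days. The sign of the median ratio at 7 days over no doxycycline thus changed with the islands kept. At 2 days the way of counting moved it between -0.10 and a value of no clear sign. The cause of the other shifts was not tested beyond what each restriction removes by construction. Of the H3K27ac-only islands, 32.3% had fewer than 20 expected H3K27ac reads at 7 days and 0.0123% at 2 days.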
